A study of Mus musculus with 6 samples.

Results

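The LIF and STAT3 pathway is described here through 9 genes, which are the ligand gene Lif, the receptor chains Lifr and Il6st, the kinases Jak1 and Jak2, the transcription factor Stat3, and the response genes Socs3, Pim1 and Pim3. The members were taken by gene symbol from a table of 23412 genes, all 9 were found, and all 9 were among the 14276 genes tested. RNA-seq was performed on undifferentiated mouse embryonic stem cells (mESCs) of the 129Sv strain. R1 was the wild type parental line, and HN (Htt-null) was a line without Huntingtin, made by deleting the promoter and exon 1 of Htt on both alleles. Each line gave 3 libraries, and a replicate number (1 to 3) stands for a collection date on which R1 and HN were both harvested. No other line of either genotype was sequenced, so a difference between HN and R1 cannot be told apart from a difference between 2 individual lines.

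Both lines were grown without feeder cells on gelatin, in medium with serum, added LIF protein, the VEGFR and FGFR inhibitor SU5402, the MEK inhibitor PD184352 and the GSK3 inhibitor CHIR99021. The pathway was therefore supplied with ligand from outside in all 6 libraries, and there was no sample without LIF. What was compared was the mRNA of its components and targets, not the phosphorylation of STAT3.

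LIF is the cytokine that keeps mESCs undifferentiated in culture. It binds a receptor made of the LIF receptor chain (Lifr) and gp130 (Il6st), which carry JAK kinases on their inner side. The kinases phosphorylate the receptor and STAT3, and STAT3 then moves to the nucleus and switches on genes that hold the naive state, along with Socs3, an inhibitor that shuts the receptor down again. The Pim kinases are survival kinases with no known regulatory domain, so their activity follows the amount of their mRNA and protein closely.

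Values are normalized counts, that is, reads on the exons of a gene divided by a size factor of the library. Fold changes are differences of log2(normalized count + 1), HN against R1, with their standard error (SE) or 95% interval. A gene was called when the Benjamini-Hochberg adjusted p-value of limma was under 0.05 and its log2 fold change was above 1 in size. Between 1640391 and 3866717 reads per library fell on genes, and a member had between 11 and 817 reads in a library. Htt itself was at 229.9, 257 and 199 in R1 and at 18.3, 58.1 and 54.2 in HN, a log2 fold change of -2.52 (SE 0.37, limma adjusted p = 0.0141). Both libraries of the third date had reads on more genes (20675 in R1 and 20542 in HN) than the 4 others, where 18133 to 19083 genes had reads. The summed level of 10 mESC markers ranged from 12535 to 18656 in R1 and from 13534 to 18023 in HN, while 8 fibroblast markers summed to between 74.0 and 173 in R1 and between 31.2 and 87.7 in HN. In bulk RNA, fewer cells of a type and less RNA per cell cannot be told apart.

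Pim1 was the member with the largest difference between the lines. It was measured at 136, 129 and 86.3 in R1 and at 288, 249.5 and 179 in HN, with 64 to 175 reads in an R1 library and 165 to 352 in an HN library. Every HN library was above every R1 library. The means were 117 ± 27.1 (SD, n = 3) in R1 and 239 ± 55.6 (SD, n = 3) in HN, a 2.03-fold difference with a 95% interval from 1.39 to 2.97. In limma without a block the log2 fold change was 1.02 (SE 0.25) with an adjusted p of 0.256, so Pim1 was not called there. Pim1 was lowest on the third date in both lines, and the same-date differences were close to each other, at 1.08, 0.94 and 1.04 on the log2 scale. With the collection date as a block, the log2 fold change stayed at 1.02 with an interval from 1.70-fold to 2.42-fold, and Pim1 was called higher in HN (limma adjusted p = 3.52e-07). Over all alternatives the adjusted p of Pim1 ranged from 2.7e-09 to 1, and its log2 fold change from 0.81 to 1.21. DESeq2 on recovered reads called Pim1 without the block too (adjusted p = 0.021), while edgeR did not (adjusted p = 0.233). Without both libraries of the third date the log2 fold change was 1.01.

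No member was called in limma without the block, against 0.245% of all genes tested (0.119% higher and 0.126% lower). In that fit 1 of the 9 members, Pim1, had an unadjusted p under 0.05, as had 843 of the 14276 genes tested. With the block 1 of 9 members was called, against 1.95% of all genes called and 0.911% called higher. R1 and HN were fully separated for 2 of the 9 members, higher in HN for Pim1 and lower for Socs3, and 10.8% of all genes tested were separated in one direction or the other (5.23% higher in HN). For these genes the exact permutation test (two-sided) gave p = 0.1, which is the smallest that 3 libraries against 3 allow. Of the 9 members, 5 differed in the same direction on all 3 dates, against 41.5% of all genes. Of these 5, Jak1 and Pim1 were higher in HN each time, against 20.3% of all genes, and Lifr, Jak2 and Socs3 were lower. The median log2 fold change of the members was -0.0016, and that of all genes was -0.01.

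**Figure D1:**
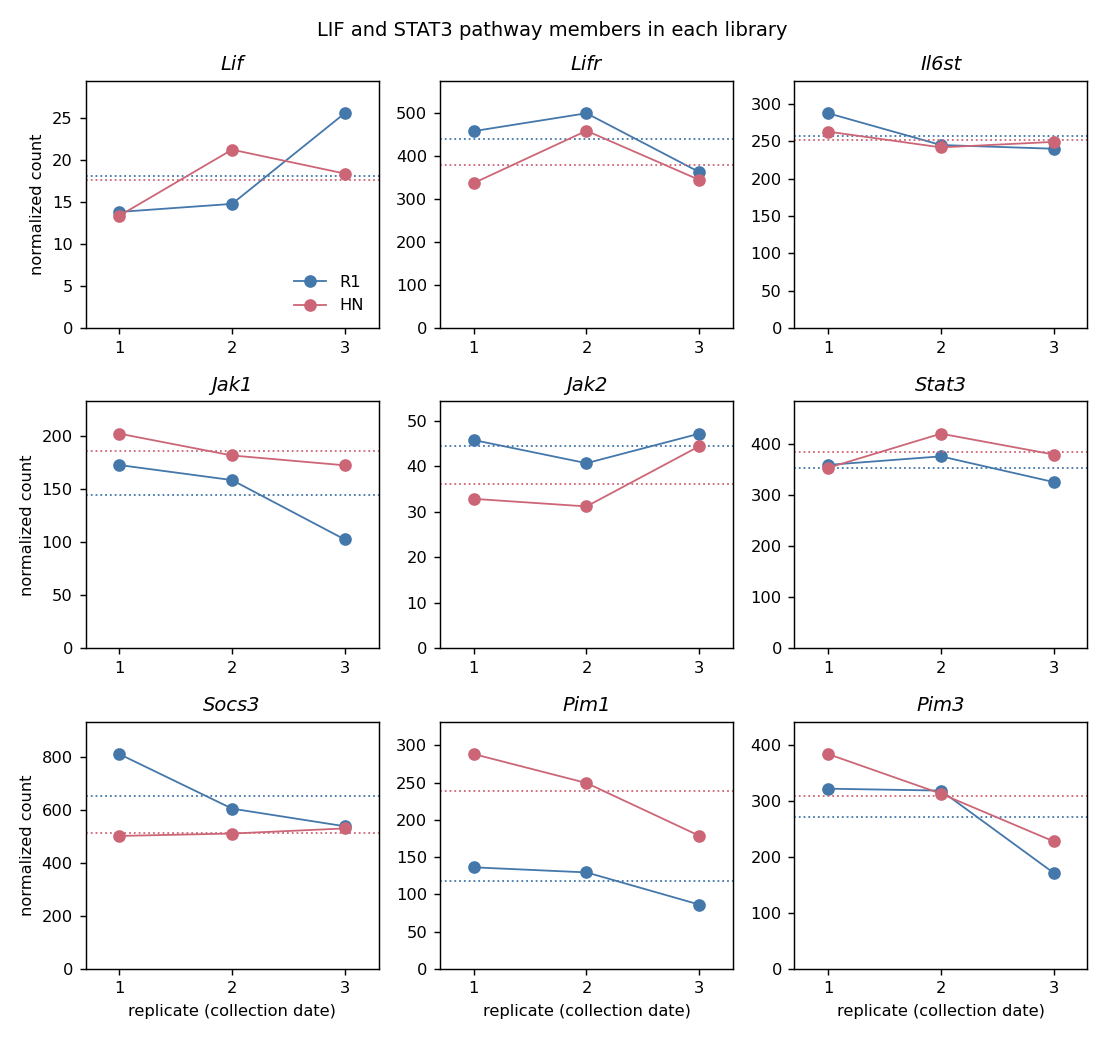
Normalized count (vertical axes, linear from 0) of each member in every library, by replicate number, which stands for the collection date (horizontal axes). Points joined by a line belong to 1 line of cells, dotted lines are the means of the 3 libraries, and Pim1 is the only panel in which all HN points, from 179 to 288, lie far above all R1 points, from 86.3 to 136.

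Pim1 lies on chromosome 17 from 29490753 to 29496112 on the plus strand (GRCm38, GENCODE M21). An antisense gene, Gm26885, overlaps 488 bases of its exons, or 14.5% of their length, and the library kit did not mark the strand, so reads there cannot be assigned to one of the pair. Gm26885 had no line of its own in the table. No 50-base stretch of the Pim1 transcripts occurred in the same direction in transcripts of another gene. Matches on the opposite strand, such as those in Gm26885, were not searched. Socs3 lies on chromosome 11 from 117966079 to 117970047 on the minus strand, with 0 bases shared with exons of another gene.

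The promoters of these genes are given because they were the only members with full separation of R1 and HN, and the sequences are those of RefSeq for GRCm38.p6. STAT dimers bind a palindrome written TTCNNNGAA, which reads the same on both strands. Capitals mark a match to it, and the window of Pim1 held 0 matches.
Socs3 (chr11:117969367-117969616, minus strand): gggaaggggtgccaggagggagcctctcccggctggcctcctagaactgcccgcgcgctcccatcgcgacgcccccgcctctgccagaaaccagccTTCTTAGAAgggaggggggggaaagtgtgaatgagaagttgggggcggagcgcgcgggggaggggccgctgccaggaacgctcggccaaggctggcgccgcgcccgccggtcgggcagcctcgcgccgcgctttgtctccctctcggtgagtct
Pim1 (chr17:29490535-29490752, plus strand): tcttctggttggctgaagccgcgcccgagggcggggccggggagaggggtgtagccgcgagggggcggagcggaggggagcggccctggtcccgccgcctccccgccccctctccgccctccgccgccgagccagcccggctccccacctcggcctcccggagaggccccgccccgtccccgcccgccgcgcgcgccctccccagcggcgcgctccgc
The stretch of Socs3 holds 250 bases before the start site in the RefSeq table, which lies 180 bases upstream of the start of the coding transcript in GENCODE. Its match, TTCTTAGAA, begins 154 bases before the RefSeq start site. Unlike the stretch of Pim1, that of Socs3 lies within the span of its gene in GENCODE. The window searched did not reach the start of the Socs3 coding transcript. The stretch of Pim1 holds the 218 bases before the gene's first base in GENCODE. G and C made up 71.6% of the first stretch and 83.0% of the second.

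Of the 9 members, which had 11 promoter windows of 300 bases in the table, only Socs3 held the palindrome. It was present in 8.30% of the 32851 windows of all genes and in 7.02% of the 250-base stretches before a start site. A match of letters is a description of the sequence and not a measured binding site, and its absence from a window says nothing about sites elsewhere.

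Socs3, the feedback inhibitor of the receptor, was at 810.1, 604 and 538 in R1 and at 501, 510.4 and 529.6 in HN. All HN libraries were below all R1 libraries, but the gap on the third date was small. The means were 651 ± 142 (SD, n = 3) in R1 and 514 ± 14.5 (SD, n = 3) in HN. Its log2 fold change was -0.32 (SE 0.20, limma adjusted p = 1), and the same-date differences were -0.69, -0.24 and -0.02. Most of the difference was thus carried by the first date, where R1 was highest. With the block the adjusted p of limma was 0.0519.

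Pim3, the other Pim kinase among the members, was at 321, 318 and 171 in R1 and at 383, 313 and 227 in HN. The lines overlapped, and the log2 fold change was 0.21 (SE 0.28, limma adjusted p = 1). Both libraries of the third date were below the 4 others, as they were for 20.9% of all genes tested. The ratio of Pim1 to Pim3 within a library does not depend on how libraries are scaled to each other. On the log2 scale, Pim1 minus Pim3 was -1.23, -1.29 and -0.98 in R1 and -0.41, -0.32 and -0.35 in HN, a difference of 0.81 with no overlap. The corresponding difference was 0.90 against Stat3 and 1.34 against Socs3. These 3 ratios were chosen after the values were seen, and each had an exact permutation p of 0.1 (0.1 after adjustment), the smallest possible.

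**Figure D2:**
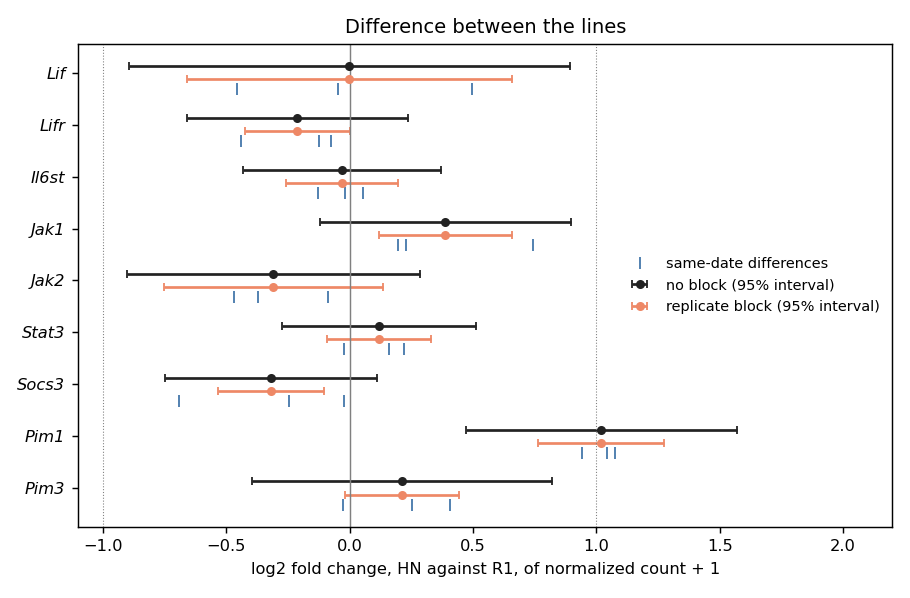
Log2 fold change of each member, HN against R1 (horizontal axis, on log2 of the normalized count + 1), with 95% intervals of limma without (black) and with (orange) the collection date as a block. Blue ticks are the differences within each of the 3 dates, which for Pim1 lie between 0.94 and 1.08, and the dotted lines mark the fold change needed for a call.

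Lif, the ligand gene, was measured at 13.8, 14.8 and 25.6 in R1 and at 13.4, 21.3 and 18.4 in HN. Between 11 and 30 reads per library lay behind these values, the fewest of any member. The lines overlapped, and the log2 fold change was -0.0016 with a 95% interval from -0.90 to 0.89. Differences of up to about that size in either direction lie within the interval. Since LIF protein was in the medium, the mRNA of Lif does not show how much ligand the cells received. Lif lies on chromosome 11 from 4257557 to 4272514 on the plus strand.

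Lifr, the chain that binds LIF directly, was at 458, 499 and 363 in R1 and at 337, 459 and 344 in HN. HN was below R1 on each date, by -0.44, -0.12 and -0.07 on the log2 scale, but the libraries of the lines overlapped. The log2 fold change was -0.21 with an interval from -0.66 to 0.24 (limma adjusted p = 1). Il6st encodes gp130, the signalling chain shared by the receptors of the IL-6 family. It was at 287, 245 and 239.9 in R1 and at 263, 242 and 249.1 in HN, and the lines overlapped. Its log2 fold change was -0.03 with an interval from -0.43 to 0.37, among the smallest differences of the members. Lifr lies on chromosome 15 from 7090614 to 7197489 and Il6st on chromosome 13 from 112464070 to 112510086, both on the plus strand.

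Jak1, the kinase on which gp130 signalling chiefly depends, was at 172, 158 and 102 in R1 and at 202, 181 and 172 in HN. HN was higher on each date, by 0.23, 0.20 and 0.74, and the lowest HN library was just under the highest R1 library. The log2 fold change was 0.39 with an interval from -0.12 to 0.90 (limma adjusted p = 1, and 0.0595 with the block). Jak2, a kinase that also serves receptors of other cytokines, went the other way in value. It was at 45.8, 40.7 and 47.2 in R1 and at 32.9, 31.2 and 44.4 in HN, with overlap. Its log2 fold change was -0.31 with an interval from -0.90 to 0.29. Jak1 lies on chromosome 4 from 101152367 to 101265282 on the minus strand, and Jak2 on chromosome 19 from 29251828 to 29313080 on the plus strand.

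Stat3, the transcription factor at the centre of the pathway, was at 359.8, 377 and 326 in R1 and at 354, 421 and 380.2 in HN. The lines overlapped, and the log2 fold change was 0.12 with a 95% interval from -0.27 to 0.51 (limma adjusted p = 1). The interval leaves out a change of the size measured for Pim1. Stat3 lies on chromosome 11 from 100885098 to 100939540 on the minus strand, where 72 bases of its exons, or 0.756%, overlap those of Stat5a on the other strand. Pim3 lies on chromosome 15 from 88862186 to 88865726 on the plus strand. At most 0.308% of the 50-base stretches of a member's transcripts, the share in Stat3, occurred in the same direction in transcripts of another gene.

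Levels of different genes were compared per kb of exon, with exon lengths from GENCODE M21. The exons were merged over all transcripts of a gene, which numbered 14 for Stat3 and 7 for Pim1. A merged length can exceed that of a single mRNA, and the order with other lengths was not tested. The authors' annotation is not given in the sources used here, so their exon lengths may differ. Over the 6 libraries Socs3 was highest, with a mean of 201 normalized counts per kb, and Pim3 followed with 119. Pim1 had a mean of 53.0, Stat3 of 38.8 and Lifr of 38.0. Il6st and Jak1 were at 22.9 and 22.8, Jak2 at 8.02 and Lif at 4.11. Socs3 and Pim3 had the highest mean per kb in both lines and Lif the lowest, while the R1 mean of Pim1, 34.9, was below those of Stat3 (37.2) and Lifr (40.8).

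Neighbours in this order did not overlap over the 6 libraries at 4 places, between Socs3 and Pim3, between Lifr and Il6st, between Jak1 and Jak2, and between Jak2 and Lif. The other neighbours overlapped over the 6 libraries, although Pim3 was above Pim1 in each of the 6. In R1, Pim1 lay between 25.7 and 40.5 per kb and overlapped Stat3, which lay between 34.2 and 39.5. In HN, Pim1 lay between 53.2 and 85.8 per kb, above the range of Stat3 from 37.2 to 44.2.

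**Figure D3:**
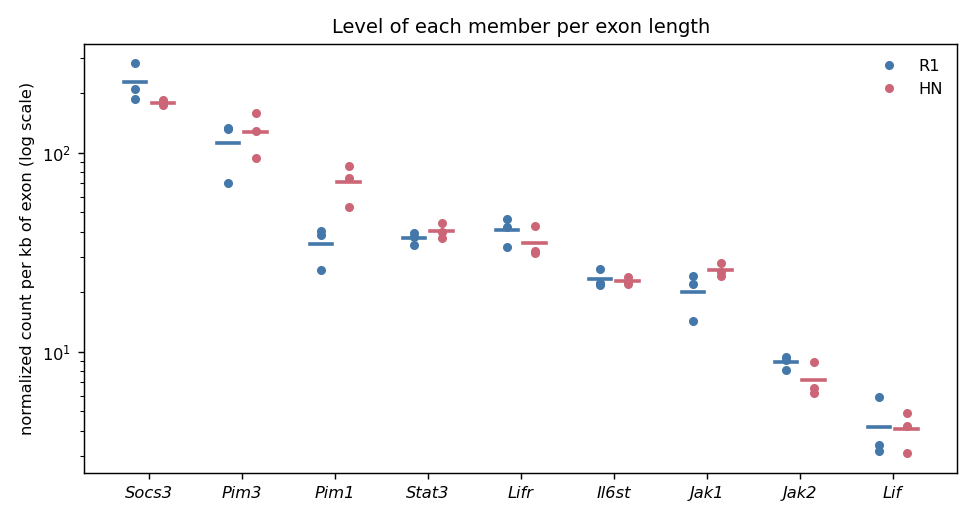
Normalized count per kb of exon of each member (vertical axis, log scale), ordered by the mean over 6 libraries, with each library as a point and the mean of each line as a bar. Exon lengths are merged over all transcripts of a gene. Socs3 is highest and Lif lowest in both lines, and Pim1 is level with Stat3 in R1 and above it in HN.

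The collection date moved several members in both lines. In the fit with line and date, 4 of 9 members passed the test of the date term (limma F test, adjusted p under 0.05), against 46% of all genes tested. Pim3 had means of 352, 315 and 199 on the 3 dates (limma adjusted p = 3.69e-05). Pim1 had means of 212, 189 and 132 (limma adjusted p = 0.00173), so both Pim kinases were lowest on the third date. Lifr had its highest mean, 479, on the second date (limma adjusted p = 0.0177). Jak1 had means of 187, 169.9 and 137 (limma adjusted p = 0.0367), but with edgeR its adjusted p was 0.0816. The libraries of the third date were also those with reads on the most genes, and the part of that difference in these values was not tested.

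Other genes of the pathway were taken from a list of 54 genes by role, chosen with earlier results of these data known. Of these genes, 46 were tested. None was called in limma without the block, where 3 of the 46 had an unadjusted p under 0.05, against 843 of all 14276 genes tested. With the block 0 were called higher and 2 lower in HN, among them Jak3, against 0.911% of all genes called higher and 1.04% lower. At any size of change, 6 passed the adjusted p higher and 2 lower with the block and 38 did not pass, a share of 17.4% against 9.48% of all genes tested (5.46% higher and 4.02% lower). The median log2 fold change of the list was 0.10.

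Among the cytokines, 7 of 9 genes were not tested because their mean was under 5, and their highest value in any library was 8.09. Ctf1, which encodes cardiotrophin 1, had a log2 fold change of -0.59 with 7 to 17 reads per library. Of 4 further receptor genes none passed with the block, and Il6ra, the binding chain for IL-6, had a log2 fold change of -0.24.

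Jak3, a kinase best known from lymphocyte cytokine receptors, was at 62.8, 44.4 and 63.3 in R1 and at 32.9, 30.5 and 19.5 in HN. All HN libraries were below all R1 libraries. The log2 fold change was -1.03 (SE 0.30, limma adjusted p = 0.437), and with the block Jak3 was called lower (limma adjusted p = 0.00268), while DESeq2 with the block gave an adjusted p of 0.0935. Without both libraries of the third date its log2 fold change was -0.72. It was the only one of 9 further kinase, STAT and Pim genes to pass with the block. Stat6, the most abundant of them, had a log2 fold change of 0.05.

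Of 14 inhibitors and phosphatases, 1 passed with the block. Pias2, a member of the PIAS family of SUMO ligases, was at 885, 1087 and 776 in R1 and at 1218, 1499 and 1023 in HN. It was higher in HN by 0.46, 0.46 and 0.40 on the 3 dates. Its log2 fold change was 0.44 (SE 0.21, limma adjusted p = 0.876, and 0.000717 with the block). Of 4 genes of the SHP2 branch, which links the receptor to the MAP kinase pathway, none passed, and the adaptor Gab1 had a log2 fold change of -0.10.

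The 14 STAT3 targets in mESCs were listed here for their role, with earlier results of these data known. Their shares are thus a description and not a test. Of these 14 targets, 13 were tested, and 5 passed the adjusted p higher in HN with the block. That is 38.5% of the tested targets, against 5.46% of all genes tested, and 0 passed lower. The response genes Socs3, Pim1 and Pim3 were not among the 14. Of them, Pim1 passed higher with the block and Pim3 did not pass. Socs3, lower in HN, did not pass in limma with the block (adjusted p = 0.0519) but did with edgeR and the block (adjusted p = 0.0274). Of 10 mESC markers, 4 (40.0%) passed higher in the same fit and 2 lower. None of the 5 targets had a log2 fold change above 1, and none passed without the block. The median log2 fold change of the 13 was 0.27, and 10 of 13 values were positive, against 48.5% of all genes. The date term was passed by 12 of the 13, against 46% of all genes tested. The part of expression level in these shares of the targets was not tested. The 5 targets that passed higher with the block were Tfcp2l1, Klf4, Klf5, Gbx2 and Zfp57.

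Tfcp2l1, a transcription factor of the naive state, was the most abundant target. It was at 3744, 3623 and 3091 in R1 and at 6216, 5235 and 4162 in HN, with all HN libraries above all R1 libraries. The log2 fold change was 0.56 (SE 0.21, limma adjusted p = 0.655, and 1.64e-05 with the block). Klf4, a Krüppel-like factor known as a direct target of STAT3, was at 339.6, 241 and 245 in R1 and at 439, 374 and 366 in HN, also with no overlap. Its log2 fold change was 0.52 (limma adjusted p = 0.000896 with the block). Zfp57, a zinc finger protein that maintains imprints, was at 1386, 1821 and 797 in R1 and at 2038, 2328 and 1187 in HN. It was higher in HN on each date, by 0.56, 0.35 and 0.57, although the lines overlapped (limma adjusted p = 0.000146 with the block).

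Klf5, a further Krüppel-like factor, and Gbx2, a homeobox factor, had log2 fold changes of 0.47 and 0.55 and passed only with the block (limma adjusted p = 0.0126 and 0.0176). With DESeq2 and the block their adjusted p was 0.133 and 0.275, so 3 of the 5 targets passed there. Klf4, Klf5 and Zfp57 are described because they passed, and were chosen after their values were seen. Myc had the highest value of the targets, 0.67, but did not pass (SE 0.67, limma adjusted p = 0.226 with the block), with 6 to 85 reads per library. Several of these targets also belong to the wider network of naive state factors.

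**Figure D4:**
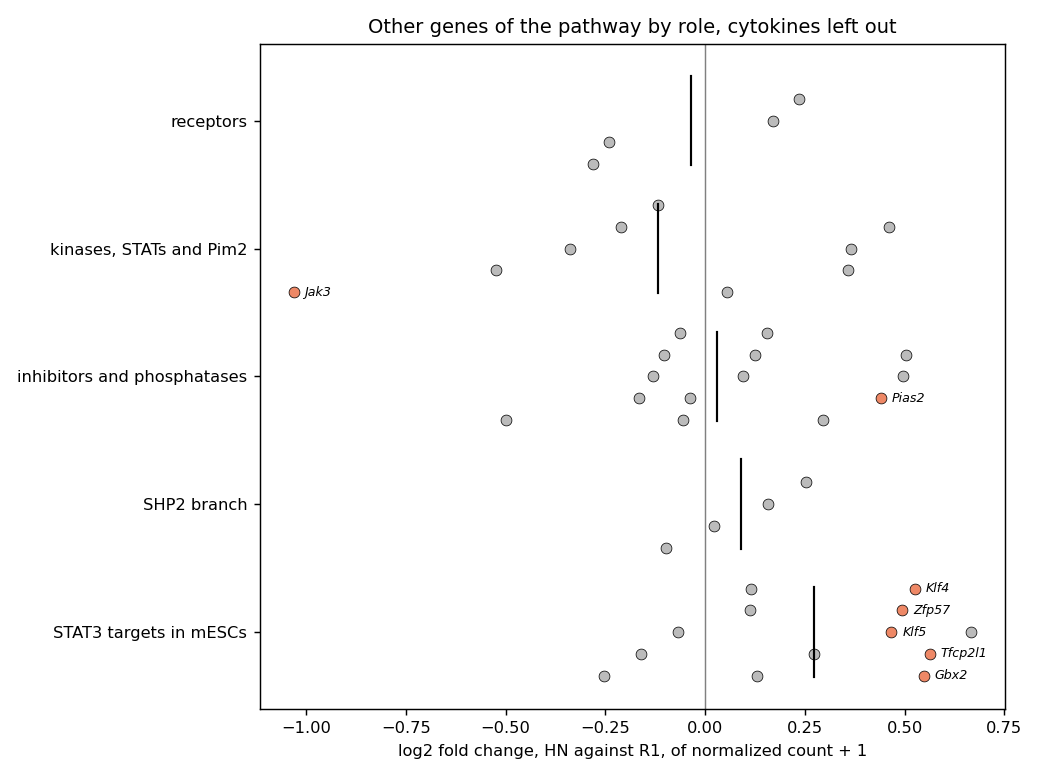
Log2 fold change of the 44 tested pathway genes other than cytokines, HN against R1 (horizontal axis, on log2 of the normalized count + 1), by role (vertical axis, with points spread within a role for legibility). Orange points with names passed an adjusted p under 0.05 with the collection date as a block, 6 of them higher and 1 lower in HN, and black bars are the medians of each role, which is 0.27 for the STAT3 targets.

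Some markers of cell types also differed between the lines. With the block, 5 of 35 markers were called, against 1.95% of all genes tested. None was called without it, against 0.245%. Of the 35, 3 fibroblast markers and 1 endoderm marker were not tested. Summed levels in R1 and HN ranged from 78.2 to 168 and from 154 to 261 for 4 mesoderm markers. They ranged from 249.4 to 308 and from 151 to 237 for 4 neural markers. For 3 epiblast markers they were from 37.7 to 109 and from 19.1 to 62.8. For 6 endoderm markers they were from 33.0 to 148 and from 30.5 to 125. A sum follows its most abundant gene, which was Eomes for mesoderm and Tubb3 for neural. Among the neural markers, the log2 fold change was -0.76 for Tubb3, -0.44 for Pax6, 0.30 for Sox1 and 0.53 for Nes. The libraries of the lines overlapped for each of these genes. Pax6 (limma adjusted p = 0.667 with the block), Sox1 (0.505) and Nes (0.259) did not pass. Pdgfrb and Thy1, used here as fibroblast markers, had log2 fold changes of -1.39 and -1.54, and Otx2, a gene of the epiblast, had -1.52. T, a gene of the mesoderm, had 1.21, and Utf1, an mESC marker, had -1.06. At any size of change, the mESC marker Zfp42 (log2 fold change -0.79) and the neural marker Tubb3 (-0.76) also passed lower with the block. The mESC markers Nanog (0.28), Esrrb (0.37), Fgf4 (0.61) and Dppa5a (0.27) and the mesoderm marker Eomes (0.96) passed higher. With DESeq2 and the block, Fgf4 (adjusted p = 0.172), T (adjusted p = 0.0698) and Dppa5a (adjusted p = 0.0525) did not pass. Thy1 and Otx2 had no adjusted p in that fit. The libraries of the lines overlapped for T. Markers other than the called ones were named after their values were seen. The fibroblast marker with the highest value reached 79.8, and 3 of 8 fibroblast markers were under the mean needed for testing. The part of these markers in the values of Pim1 and Jak3 was not tested.

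For each member, the gene whose log2 values were most like it over the 6 libraries was found among all genes tested. For Pim1 this was Ska2 (Pearson r = 0.996), a gene of the mitotic spindle, at 94.7, 96.2 and 76.8 in R1 and at 156, 142 and 113 in HN. For Socs3 it was Golph3 (r = 0.993) and for Stat3 Clptm1 (r = 0.997). Lifr was nearest to Ufc1 (r = 0.997), Il6st to Arpc1b (r = 0.991), Jak1 to Mdp1 (r = 0.997), Jak2 to Coasy (r = 0.994), Pim3 to Pomt1 (r = 0.996) and Lif to Slc43a2 (r = 0.985). With 6 libraries such values are common, since between 16 and 122 genes had an r above 0.95 with a given member. No other member was the nearest gene of any member.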

How the data were processed

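RNA-seq of 3 R1 and 3 HN libraries (TruSeq RNA kit, paired-end) was analysed from a deposited table of normalized signal per gene. Per the paper's methods, the authors aligned reads to mm10 (GRCm38) with STAR, removed duplicates with Picard, counted reads on exons with HTSeq and divided by DESeq2 size factors. Versions and the annotation are not given in the sources used here. Unused columns of per-sample values numbered 0. Spreadsheet dates had replaced 27 gene names, none of a member. Dividing by the value of 1 read gave whole numbers (within 0.001) for 100% of values, and these recovered reads were used for depth and for the count tests. Depths bear on counting error only, and the intervals of limma come from the spread between libraries.

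Genes with a mean of at least 5 were tested with limma 3.58.1 (variance trend, R 4.3.3) on log2(normalized count + 1), with Benjamini-Hochberg adjustment over 14276 genes. The main comparison had no block, as the study's methods name none. Labels give same-numbered replicates a shared collection date. Deviations of same-date libraries from their line's mean correlated at 0.25, 0.69 and 0.77, those of other pairs at -0.71 to 0.34. R1 replicate 1 correlated more with HN replicate 2 (0.34) than with HN replicate 1 (0.25). Deviations cancel out within a line, so negative values of other pairs are partly fixed by the calculation. Because of the shared dates in the labels, the blocked fit is printed where it changes a call. P-values measure the spread between these batches. The scripts were tested on simulated data. The simulated differences between the lines were larger than those of the members and had no date effect beside them.

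Alternatives were edgeR 4.0.16 and DESeq2 1.42.0 on recovered reads, with and without the block, other pseudocounts, filters and scalings, no variance trend, and leaving out libraries. Leaving out both libraries of replicate 3 was added after seeing the data. One gene of the pathway list is not reported here. The members and lists were chosen with earlier results of these data known. Named genes were the members, Htt, pathway genes called with or without the block, the 3 highest and 3 lowest log2 fold changes of the list, the most abundant gene of each role, the gene most like each member, and called markers.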

Additional observations from a re-analysis of the deposited data

How the results depend on the processing

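Of the genes called in limma without a block, 17 were higher and 18 lower in HN. With the replicate block 130 were higher and 148 lower, with edgeR and the block 132 and 152, with DESeq2 47 and 33, and with DESeq2 and the block 72 and 55. Median centring called 27 higher, and without a variance trend 0 were called higher and 0 lower by limma, with 767 genes at an unadjusted p under 0.05. Leaving out 1 library gave 3 to 30 higher and 4 to 26 lower. The counts moved by over 1.5 times without R1 replicate 1 (4 higher, 4 lower), without HN replicate 1 (3 higher, 10 lower) and without R1 replicate 3 (30 higher). The members called higher numbered 1 (Pim1) with the replicate block, edgeR with the block, DESeq2, and DESeq2 with the block, each at a log2 fold change of 1.02, and 0 in the other alternatives. Leaving out 1 library moved Pim1 between 0.81 and 1.21, and in none of these was it called. Pathway genes called lower numbered 2 with the replicate block and 1 with edgeR and the block. The adjusted p of Socs3 was 0.0274 with edgeR and the block and 0.173 with DESeq2 and the block. The block changed no other call of a member.

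Lif turned positive with edgeR and the replicate block (0.041), DESeq2 and the block (0.0081), median centring (0.013), without R1 replicate 3 (0.26), without HN replicate 1 (0.18) and without both libraries of replicate 3 (0.23), and ranged from -0.16 to 0.26 with 1 library left out. Il6st was 0.051 without R1 replicate 1, within -0.079 to 0.051. Pim3 was -0.087 without R1 replicate 3, within -0.087 to 0.41. Stat6 was -0.22 without R1 replicate 3, -0.02 without HN replicate 1, -0.06 without HN replicate 2 and -0.03 without both libraries of replicate 3, within -0.22 to 0.25. Without R1 replicate 2, Il6ra was 0.069, within -0.53 to 0.069, and Gab1 was 0.068, within -0.28 to 0.068, with 0.02 without HN replicate 1. The date term of Jak1 had an adjusted p of 0.0816 with edgeR. The causes were not tested. Lifr, Jak1, Jak2, Stat3 and Socs3 kept their direction and were not called in any alternative run, although Socs3 passed the adjusted p alone with edgeR and the block. With a minimum mean of 50, 7 members were tested, and Lif and Jak2 gave no value. Lif had the fewest reads of any member, with 11 to 30 per library.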
